A study of Mus musculus with 10 samples.

Results

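The CCN matricellular genes Ccn1, Ccn2, Ccn3, Ccn4 and Ccn5, known earlier as Cyr61, Ctgf, Nov, Wisp1 and Wisp2, were examined in mouse lung after neonatal smoke exposure. Their members here are all 10 probe sets to which the platform annotation gives 1 of these symbols and no other, that is 5 of the 18193 genes, and 10 of the 34945 probe sets with 1 gene symbol among 45101 on the array. Ccn1 had 4 probe sets, Ccn3 and Ccn4 had 2 each, and Ccn2 and Ccn5 had 1 each. The smoke group held the lungs of 6 C57BL/6J mice aged 2 weeks, put into a cigarette smoke chamber together with their mother from the age of 1 day. Daily exposure lasted 1 hour in the first 7 days and 2 hours in the next 7, and the smoke averaged 90 mg particulates per cubic metre. The 4 control lungs came from mice matched in strain and age that breathed filtered air. Each mouse gave 1 Affymetrix mouse whole-genome expression array. The labels leave the sex of the mice unknown and name no litter or batch. The p-values thus rest on the spread among these arrays alone, which may in part be technical. Littermates are not independent, and a difference between litters cannot be told apart from a difference after smoke. Precision is limited by how few arrays there are.

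CCN proteins are secreted, cysteine-rich proteins of the extracellular matrix that act as signals to cells and are built from a shared set of modules. They bind integrins, heparan sulphate proteoglycans and growth factors. Ccn1 and Ccn2 are classic early-response genes, switched on by serum, TGF-beta, mechanical tension and the YAP and TAZ co-activators acting through TEAD factors, and CCN2 is widely used as a marker of fibrosis in lung. Ccn3 opposes CCN2 in several settings. Ccn4 was named as a Wnt-inducible gene, and Ccn5 lacks the C-terminal cystine-knot module that the others carry.

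The proximal promoter of Ccn1 is shown because Ccn1 is known as a TEAD target and the letters of a TEAD core stand in it. Of the 5 genes, 1 matched an entry of the RefSeq promoter table for GRCm38.p6. The 250 bases before the Ccn1 start lie at chr3:145649986-145650235 on the minus strand and are given 5′ to 3′, with the motif matches in capitals.
Ccn1: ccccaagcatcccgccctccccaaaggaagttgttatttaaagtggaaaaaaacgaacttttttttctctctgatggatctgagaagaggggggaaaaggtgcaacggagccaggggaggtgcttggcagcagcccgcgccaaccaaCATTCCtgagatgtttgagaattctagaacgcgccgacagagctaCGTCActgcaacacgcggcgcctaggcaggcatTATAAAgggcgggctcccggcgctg
The first run of capitals is the TEAD core GGAATG on the opposite strand, CATTCC, 103 to 98 bases before the start. The second is the cyclic AMP response half-site TGACG on the opposite strand, CGTCA, 58 to 54 bases before it, and the third is the TATA box TATAAA, searched on the gene's own strand, 25 to 20 bases before it. Among 32851 promoter windows of the same length, 12.6% held the TEAD core, 17.8% the half-site (both strands each) and 7.6% the TATA box. The AP-1 motif TGANTCA, in 6.7% of windows, and the CArG box of SRF, in 1.5%, were not among the letters of the Ccn1 window. None of the 3 matches overlapped another.

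None of the 10 probe sets passed the test between smoke and control lungs (limma, Benjamini-Hochberg over 27022 probe sets, adjusted p under 0.05), where 0.551% of all tested probe sets did, 0.0111% higher and 0.54% lower after smoke. All 10 passed the filter on dim probe sets. On the log2 scale, 7 were higher and 3 lower after smoke. At an unadjusted p under 0.05 there were 2 of 10, 1 of Ccn4 and 1 of Ccn2, against 10% of all tested probe sets. In the same 2 no smoke array overlapped the controls, Ccn4 lying above every control and Ccn2 below every control. Of all tested probe sets 1.54% were higher and 2.83% lower without overlap.

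**Figure D1:**
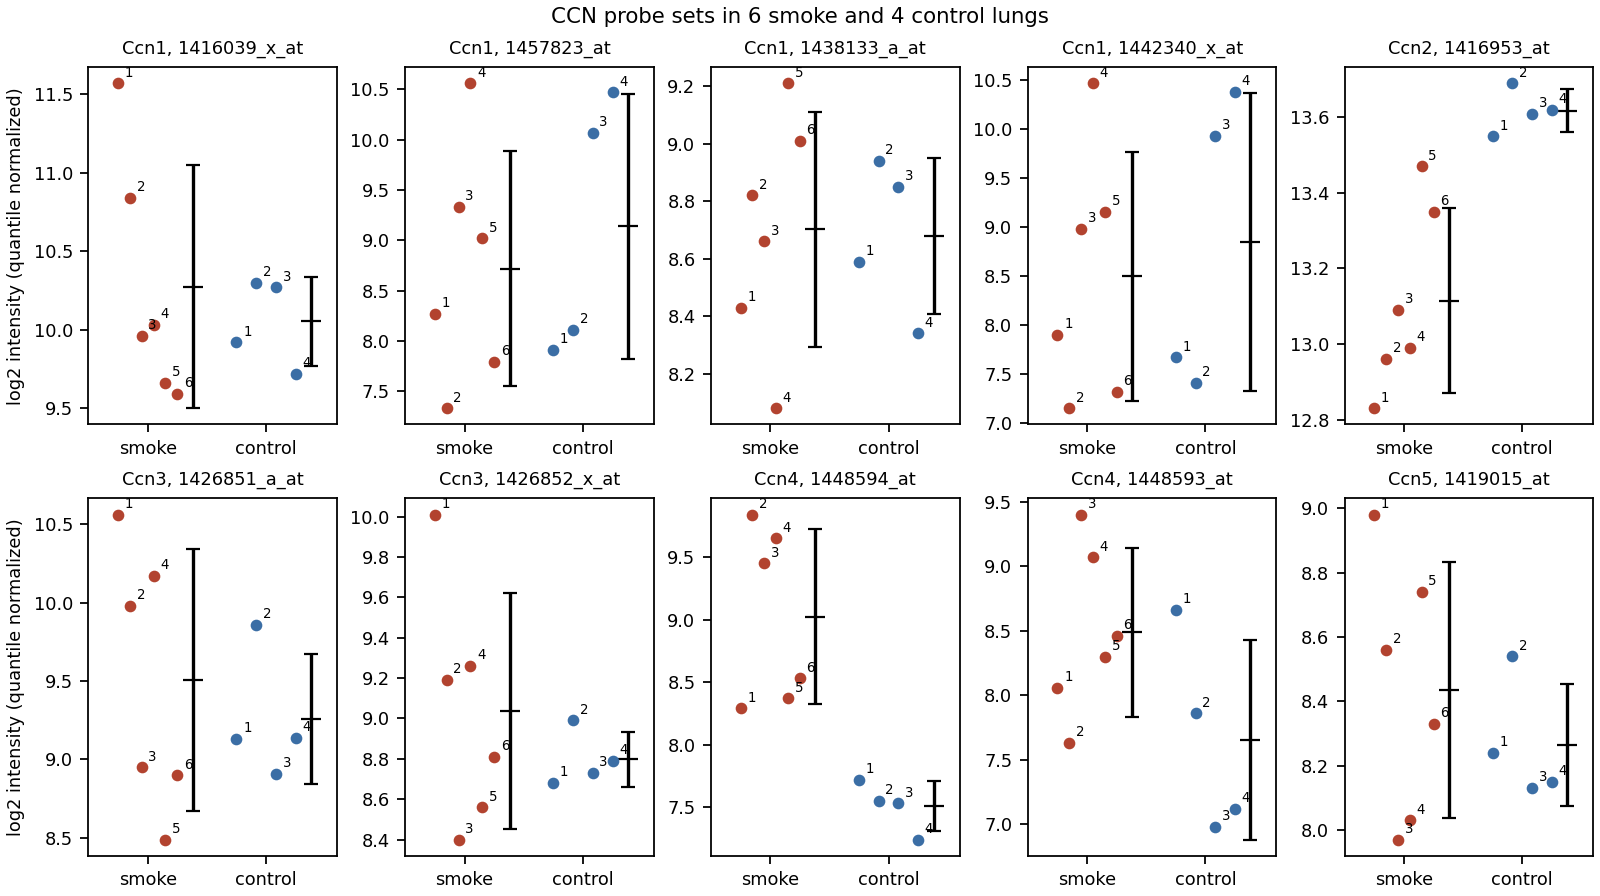
Log2 intensity after quantile normalization (vertical axis) of the 10 CCN probe sets in smoke lungs (red) and control lungs (blue); points are single arrays with their replicate number, and bars give the mean and SD of 6 smoke and 4 control arrays. Ccn4 probe set 1448594_at lay between 8.29 and 9.84 in smoke lungs, above all controls, and Ccn2 lay between 12.83 and 13.47, below all controls.

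Ccn4, a matricellular protein first described as a Wnt-responsive gene, had the largest difference of the family. Its probe set 1448594_at had deposited intensities of 326.8 at the lowest, 540.6 at the median and 832.1 at the highest among smoke lungs, against 196.7, 186.0, 178.4 and 150.0 in the 4 control lungs. All 6 smoke lungs thus lay above all 4 controls, and smoke lungs 2, 3 and 4 lay well above smoke lungs 1, 5 and 6. Among tested probe sets 1.54% were higher after smoke without overlap. After quantile normalization the log2 intensity was 9.02 ± 0.70 (SD, n = 6) in smoke lungs and 7.51 ± 0.20 (SD, n = 4) in control lungs. The log2 difference was 1.51 ± 0.34 (SE), a 2.85-fold higher level, with a 95% confidence interval of 0.77 to 2.25 and an adjusted p of 0.0997 (limma). The exact two-sided permutation p was 0.0143, unadjusted, where 0.00476 is the smallest that 6 against 4 arrays allow.

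The second Ccn4 probe set, 1448593_at, lay on the same side with a smaller difference. Its intensities ran from 180.4 through a median of 329.8 to 692.2 in smoke lungs, against 402.4, 229.4, 123.7 and 137.6 in control lungs. Here 2 of 6 smoke lungs lay above every control and the groups overlapped. The log2 difference was 0.83 ± 0.40 (SE), with a 95% confidence interval of -0.05 to 1.71 (limma, adjusted p = 0.519). The Pearson correlation of the 2 Ccn4 probe sets over the 10 arrays was 0.58, given as a description, since both read the same RNA samples.

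Ccn2, the connective tissue growth factor whose mean level put it in the top 0.919% of probe sets, was lower in every smoke lung. Its deposited intensities were 7637.2 at the lowest, 8516 at the median and 10917.1 at the highest among smoke lungs, against 11106.0, 13665.9, 12568.8 and 10981.6 in the control lungs. The groups did not overlap, but smoke lung 2 came close to control 4 on this scale. Among tested probe sets 2.83% were lower after smoke without overlap. After quantile normalization the log2 intensity was 13.12 ± 0.24 (SD, n = 6) in smoke lungs and 13.62 ± 0.05 (SD, n = 4) in control lungs. The log2 difference was -0.50 ± 0.13 (SE), with a 95% confidence interval of -0.79 to -0.21 (limma, adjusted p = 0.191). That is a 1.42-fold lower level, and the exact two-sided permutation p was 0.00952, unadjusted.

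The calls for Ccn4 and Ccn2 depended on which arrays entered and how they were weighted. The actin 3′ to 5′ ratio, a measure of how complete the labelled RNA was, stood at 31.6 and 29.4 on smoke arrays 1 and 2, at 2.18 and 2.98 on smoke arrays 5 and 6, and between 3.96 and 10.4 on the controls. Both passed once the actin ratio (log2) entered as a covariate, Ccn4 at a log2 difference of 1.47 ± 0.31 (limma, adjusted p = 0.0308) and Ccn2 at -0.47 ± 0.07 (limma, adjusted p = 0.00629). That fit used quantile normalized values. On them the deviations of Ccn2 from the group means had a Pearson r of -0.9 with the log2 ratio, but 0.31 as deposited. For Ccn4 (1448594_at) these were 0.44 and 0.51. Without smoke arrays 1 and 2 Ccn4 passed at 1.54 ± 0.30 (limma, adjusted p = 0.0467), and Ccn2 was at -0.37 ± 0.11 (limma, adjusted p = 0.228). Without smoke arrays 5 and 6 both passed, Ccn4 at 1.74 ± 0.32 and Ccn2 at -0.68 ± 0.09 (limma, adjusted p = 0.0162 and 0.00424). Ccn4 also passed with array weights, at 1.37 ± 0.25 (limma, adjusted p = 0.018). More probe sets passed over the whole array in each of these fits, so the rise was not particular to Ccn4 and Ccn2. Of 27022 tested probe sets, 149 passed as reported, 639 with the covariate and 342 with weights. Dropping smoke arrays 5 and 6 gave 1203, while dropping 1 and 2 gave 252. Over 23 alternative settings Ccn4 kept its sign and passed in 5, and Ccn2 kept its sign and passed in 3. Across them the adjusted p (limma) ran from 0.0162 to 0.328 for Ccn4 and from 0.00424 to 0.546 for Ccn2. For Ccn2 it was 0.365 as deposited, 0.546 with arrays centred on the median and 0.39 with eBayes without a trend.

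**Figure D2:**
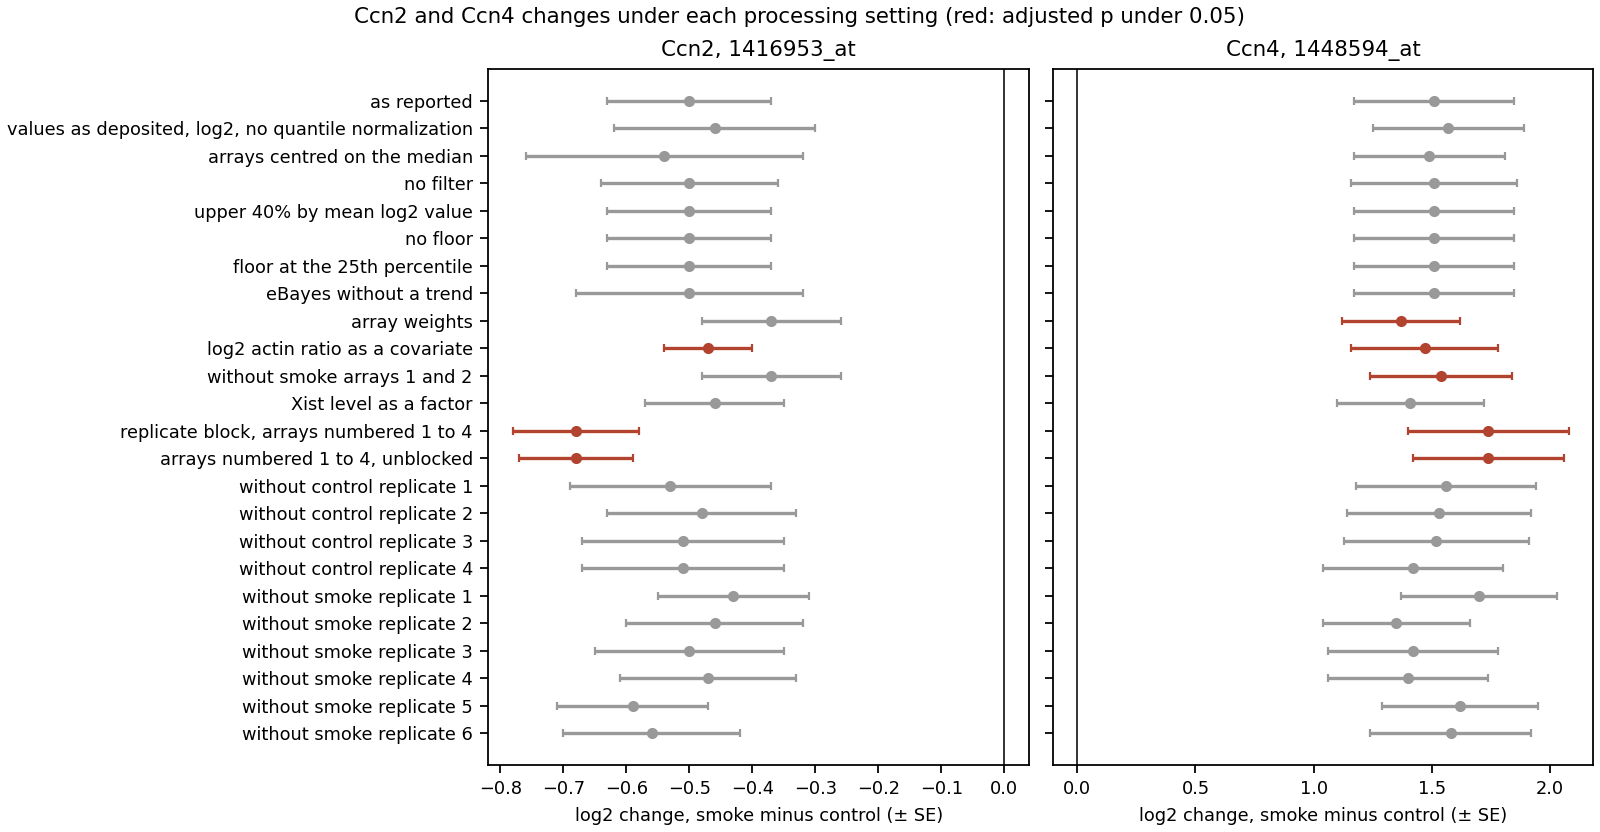
Log2 change, smoke minus control, with its standard error (horizontal axis) for Ccn2 and Ccn4 as reported and under 23 other settings (rows); red marks an adjusted p under 0.05. All points lie on 1 side of 0, from -0.68 to -0.37 for Ccn2 and from 1.35 to 1.74 for Ccn4.

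Smoke arrays 5 and 6 were also the only smoke arrays high in Xist, the RNA of the inactive X chromosome, used here as a marker of sex. Among arrays high in Xist the mean log2 intensity of Ccn4 was 8.45 in 2 smoke lungs and 7.40 in 2 control lungs, and among arrays low in Xist it was 9.31 in 4 smoke lungs and 7.63 in 2 control lungs. For Ccn2 the means were 13.41 in smoke lungs and 13.65 in control lungs at high Xist, and 12.97 in smoke lungs and 13.58 in control lungs at low Xist. Both genes thus kept their side at each Xist level. With Xist level as a factor the log2 differences were 1.41 ± 0.31 for Ccn4 and -0.46 ± 0.11 for Ccn2 (limma, adjusted p = 0.0958 and 0.131). In smoke lungs a high Xist level and a low actin ratio fell on the same 2 arrays and cannot be told apart. Every fit without both of these arrays set 4 smoke lungs low in Xist against 2 high and 2 low controls. Xist level was thus unbalanced between the groups in those fits.

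Ccn1, an angiogenic CCN protein and the best known YAP target beside Ccn2, gave different answers from its 4 probe sets. The brightest, 1416039_x_at, had intensities of 825.8 at the lowest, 1026 at the median and 2749.4 at the highest in smoke lungs, against 999.5, 1222.5, 1239.3 and 867.9 in control lungs. Smoke lungs 1 and 2 lay above every control and smoke lungs 5 and 6 below every control. The log2 difference was 0.22 ± 0.36 (SE), with a 95% confidence interval of -0.57 to 1.01 (limma, adjusted p = 0.859), and without smoke arrays 1 and 2 it was -0.24 ± 0.19. Probe set 1438133_a_at had a log2 difference of 0.02 ± 0.24 (limma, adjusted p = 0.987), with its highest level in smoke lung 5 and its lowest in smoke lung 4.

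The other Ccn1 probe sets, 1457823_at and 1442340_x_at, were designed from 1 and the same sequence record, per the platform annotation, and moved together over the arrays (Pearson r = 0.99, rho = 0.98, 10 arrays, a description). Probe set 1457823_at had intensities of 149.4 at the lowest, 445.7 at the median and 1463.0 at the highest in smoke lungs, against 227.6, 270.3, 1070.6 and 1458.6 in control lungs. Each group thus spanned a several-fold range of its own, with smoke lung 4 and controls 3 and 4 high, and smoke lung 2 lowest. The log2 differences were -0.43 ± 0.67 for 1457823_at and -0.35 ± 0.74 for 1442340_x_at (limma, adjusted p = 0.852 and 0.892). Over the same arrays 1416039_x_at and 1457823_at had a Pearson r of -0.33 and a rho of -0.09. Affymetrix marks with _x_at a probe set whose probes can also match other transcripts.

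**Figure D3:**
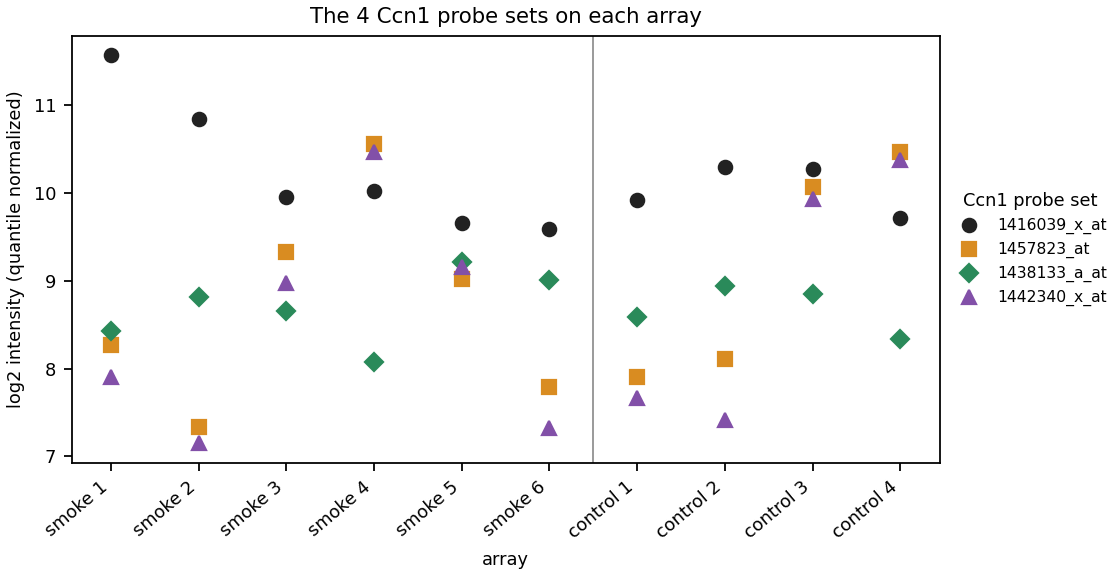
Log2 intensity after quantile normalization (vertical axis) of the 4 Ccn1 probe sets on each of 6 smoke and 4 control arrays (horizontal axis). Probe sets 1457823_at and 1442340_x_at follow each other and are highest on smoke array 4 and control arrays 3 and 4, while 1416039_x_at is highest on smoke arrays 1 and 2.

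Ccn3, a CCN protein of endothelium, nerve and smooth muscle, was measured by 2 probe sets that shared their pattern (Pearson r = 0.90 over 10 arrays, a description). For 1426851_a_at the intensities were 359.1 at the lowest, 717.3 at the median and 1351.1 at the highest in smoke lungs, against 565.8, 896.6, 460.8 and 579.8 in control lungs. Smoke lungs 1, 2 and 4 lay above every control and smoke lung 5 below every control. The log2 difference was 0.25 ± 0.40 (SE), with a 95% confidence interval of -0.63 to 1.13 (limma, adjusted p = 0.856). Without smoke arrays 1 and 2 it was -0.14 ± 0.35. The second probe set, 1426852_x_at, had a log2 difference of 0.24 ± 0.29 (limma, adjusted p = 0.800).

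Ccn5 had intensities of 254.1 at the lowest, 320.9 at the median and 520.9 at the highest in smoke lungs, against 293.9, 358.3, 267.6 and 284.1 in control lungs. The groups overlapped, with smoke lungs 1 and 5 above every control and smoke lung 3 below every control. The log2 difference was 0.17 ± 0.24 (SE), with a 95% confidence interval of -0.34 to 0.69 (limma, adjusted p = 0.825).

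Probe sets of Ccn1, and those of Ccn4, differed among themselves in how they stood to the actin ratio of the arrays. The brightest Ccn1 probe set had a Pearson r of 0.89 with the log2 ratio over 10 arrays, while 1457823_at, 1438133_a_at and 1442340_x_at had -0.30, -0.38 and -0.32. The Ccn4 probe sets had 0.33 (1448594_at) and -0.05 (1448593_at), and the Ccn3 probe sets had 0.81 and 0.68. Ccn2 had -0.6 and Ccn5 had 0.24. These values are descriptions with no test. At the 2 highest ratios, on smoke arrays 1 and 2, the log2 intensity of Ccn1 (1416039_x_at) was 11.57 and 10.84, and at the 2 lowest, on smoke arrays 5 and 6, it was 9.66 and 9.59. For Ccn3 (1426851_a_at) these were 10.56 and 9.98 at the highest ratios and 8.49 and 8.90 at the lowest, but smoke array 4, at a ratio of 10.3, had 10.17 and so lay above smoke array 2. Ccn2 ran the other way after quantile normalization, at 12.83 and 12.96 on smoke arrays 1 and 2 and 13.47 and 13.35 on smoke arrays 5 and 6. As deposited, that order did not hold for Ccn2, which had intensities of 8255.1 and 10917.1 on smoke arrays 1 and 2 and 8895.0 and 8510.8 on smoke arrays 5 and 6. The part of RNA quality in these levels was not tested.

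**Figure D4:**
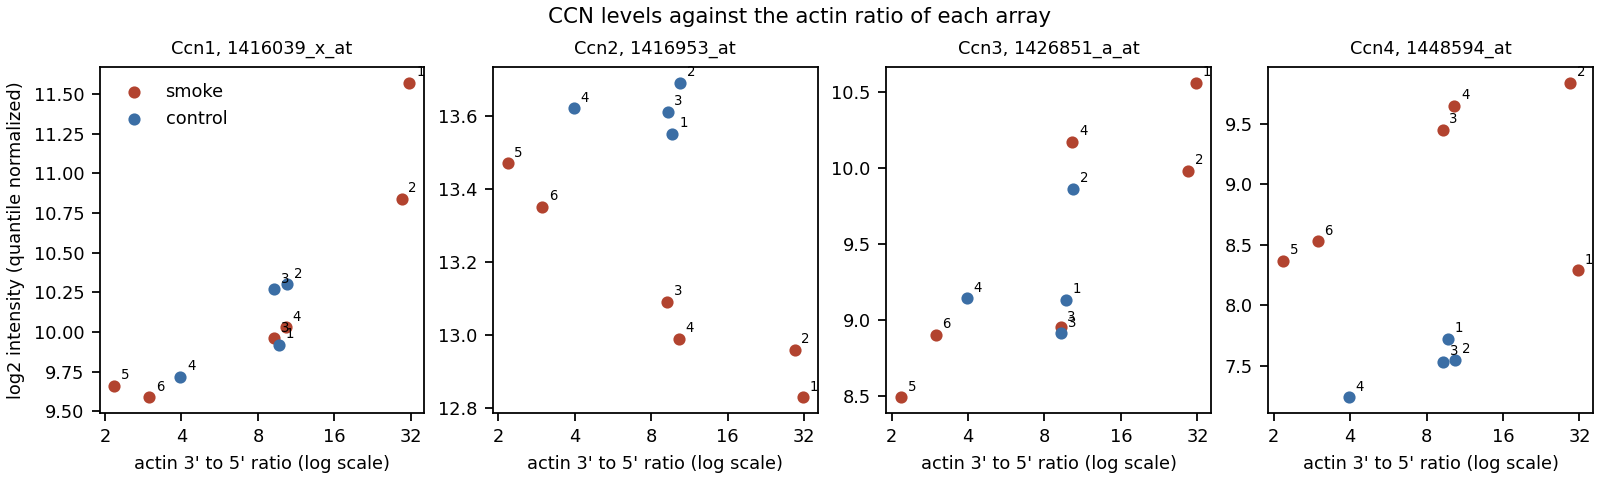
Log2 intensity after quantile normalization (vertical axis) of Ccn1, Ccn2, Ccn3 and Ccn4 against the actin 3′ to 5′ ratio of the array (horizontal axis, log scale), for smoke (red) and control (blue) arrays with their replicate numbers. Each gene is shown by its brightest probe set. Ccn1 is highest at the ratios of 31.6 and 29.4, Ccn3 is highest at 31.6 and next highest at 10.3, and Ccn2 in smoke lungs is highest at 2.18. Ccn4 (1448594_at) lies above all controls in every smoke lung, but the controls span only ratios of 3.96 to 10.4.

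Covariation of the 5 genes apart from smoke was tested on deviations from the group means over 10 arrays, with exact permutation within groups (17280 relabellings) and adjustment over the 10 pairs. None of the 10 pairs passed. Ccn2 and Ccn3 had r = -0.80 (exact permutation p = 0.0259, adjusted p = 0.13) and rho = -0.71 (exact permutation p = 0.0784, adjusted p = 0.261), and r was -0.53 without the 2 arrays farthest from the median of Ccn2. Ccn1 and Ccn3 had r = 0.78 (exact permutation p = 0.0197, adjusted p = 0.13) and rho = 0.75 (exact permutation p = 0.0451, adjusted p = 0.261), and r was 0.60 without the 2 farthest arrays of Ccn1. Ccn1 and Ccn2 had r = -0.77 (exact permutation p = 0.0572, adjusted p = 0.191) and rho = -0.72 (exact permutation p = 0.0523, adjusted p = 0.261), with r = -0.56 without those arrays. As deposited, the r of Ccn2 was 0.04 with Ccn3 and 0.34 with Ccn1, so that only the relation of Ccn1 and Ccn3, at 0.72, kept its sign among these 3. Ccn1 stood here by 1416039_x_at, whose r with the other Ccn1 probe sets was -0.33, -0.21 and -0.34. The deviations of this probe set and of Ccn3 had r of 0.89 and 0.81 with the log2 actin ratio. The part of that ratio in their relation was not tested.

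The genes most like each member, taken by its brightest probe set, were ranked by Pearson r over the 10 arrays among 12713 tested genes. They were picked as the highest values of many, all share the same arrays, and no p is given. Nearest to Ccn2 were Xdh, which encodes xanthine dehydrogenase, at 0.987, Fkbp5, a glucocorticoid-induced immunophilin, at 0.986 and Ogn, a small leucine-rich matrix proteoglycan, at 0.984. As deposited these were 0.629, 0.571 and 0.909, so that the likeness to Xdh and Fkbp5 was weaker on that scale. Xdh and Fkbp5 had log2 differences of -2.26 ± 0.57 and -2.14 ± 0.56 and Ogn of -0.42 ± 0.12 (limma, adjusted p = 0.161, 0.187 and 0.251). Over 23 other settings Xdh passed in 4, Fkbp5 in 5 and Ogn in 3, among them the actin covariate for each, and without smoke replicate 5 the adjusted p (limma) was 0.0349 for Xdh and 0.0403 for Fkbp5. Nearest to Ccn4 were Plcxd2 at 0.979, Lhfpl2 at 0.962 and Bmper, a secreted regulator of BMP signals, at 0.952, with log2 differences of 0.40 ± 0.19, 1.61 ± 0.32 and 0.56 ± 0.23 (limma, adjusted p = 0.517, 0.057 and 0.446). Lhfpl2 passed in 11 of 23 other settings, with an adjusted p (limma) of 0.0347 as deposited, 0.00643 with the actin covariate, 0.0235 without smoke replicate 5 and 0.0236 without smoke replicate 6, and a range of 0.00101 to 0.236 over all 23. Plcxd2 and Bmper passed in none of theirs. As deposited the r of these with Ccn4 was 0.812, 0.981 and 0.939. Ccn1 lay nearest to Klhl14, Tctn3 and Tex46, at 0.962 to 0.958, and without smoke arrays 1 and 2 these were 0.799, 0.775 and 0.901. Ccn3 lay nearest to Slc10a7, Rrp1 and Dab1, at 0.983 to 0.961, and Ccn5 to Slc30a6, Prxl2b and Sh3glb2, at 0.930 to 0.909. The other probe sets of Ccn1, Ccn3 and Ccn4 shared none of these nearest genes. First were Deup1 for Ccn1 1457823_at and 1442340_x_at and Zc3h6 for Ccn1 1438133_a_at. For Ccn3 1426852_x_at it was Pxt1, and for Ccn4 1448593_at it was Ablim3.

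The pathways around the CCN genes were examined as 8 lists, of which 143 of 156 genes were tested, each by its brightest probe set. None of the 143 passed (limma, adjusted p under 0.05), where 0.725% of 13382 tested genes did, 0.0224% higher and 0.702% lower, and the median log2 difference over all tested genes was 0.06. Among CCN receptors and binding partners none of 18 passed, with a median of -0.06. The 2 with the smallest p were the integrin subunits Itga5 at 1.00 ± 0.34 and Itgb6 at -1.25 ± 0.59 (limma, adjusted p = 0.364 and 0.513). Among components of the Hippo pathway, which restrains YAP and TAZ, none of 18 passed, with a median of 0.03. Vgll4, a TEAD cofactor that opposes YAP, was at -0.54 ± 0.22 and Frmd6 at -0.60 ± 0.31 (limma, adjusted p = 0.442 and 0.530).

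Among 20 other YAP and TAZ targets none passed, with 10 above 0, 10 below 0 and a median of -0.01. Crim1, a membrane protein with the cysteine-rich repeats also found in CCN proteins, was at -1.02 ± 0.26, and F3, tissue factor, at -0.92 ± 0.26 (limma, adjusted p = 0.166 and 0.227). Both lay below every control in 6 of 6 smoke lungs, and Arhgef17 of the same list lay above every control in 6 of 6. Over all tested genes 2.11% were lower without overlap and 1.97% higher, and no direction of the list follows from these members. The SRF and MRTF list, which holds Srf, Mrtfa and Mrtfb themselves beside targets, had none of 20 members past the threshold. Of these 16 were above 0 and 4 below 0, with a median of 0.33. On arrays numbered 1 to 4 alone, that is without the smoke arrays high in Xist, the median was 0.13 over 19 tested members. The median of all tested genes was 0.09 there. In the settings on other sets of arrays the list median ran from 0.17 to 0.42. Actg2, Cnn1 and Lmod1 of this list are also on the list of smooth muscle markers used below. Tgfb1i1, a focal adhesion adaptor, was at 0.86 ± 0.27, and Srf, the serum response factor itself, at 0.73 ± 0.26 (limma, adjusted p = 0.298 and 0.382). In this list 2 of 20, Tgfb1i1 and Acta2, lay above every control in 6 of 6 smoke lungs, against 1.97% of all tested genes. The TGF-beta list had none of 18 members past the threshold and a median of 0.05, with Ski, a repressor of SMAD signalling, at 0.71 ± 0.30 and Smad2 at 0.40 ± 0.19 (limma, adjusted p = 0.459 and 0.503).

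The list of Wnt ligands, regulators and beta-catenin targets had none of 17 members past the threshold and a median of 0.19. Wnt2, a ligand of lung mesenchyme, was at 0.98 ± 0.21, with 6 of 6 smoke lungs above the controls, and Wnt5a was at 1.47 ± 0.42, above every control in 5 of 6 (limma, adjusted p = 0.0824 and 0.233). Higher without overlap was 1 of the 17 members, Wnt2, against 1.97% of all tested genes. Wnt2 passed in 5 of 23 other settings, at 1.00 ± 0.19 as deposited (limma, adjusted p = 0.0409) and at 0.94 ± 0.16 with the actin covariate (limma, adjusted p = 0.0111). Wnt5a passed in 3 of 23, at 1.37 ± 0.26 with that covariate (limma, adjusted p = 0.0199) and at 2.01 ± 0.26 without smoke arrays 5 and 6 (limma, adjusted p = 0.00228). Of the other named list members, Tgfb1i1 passed in 3 settings, Srf in 2, and Crim1, F3 and Fbln5 in 1 each. Immediate early genes had none of 19 past the threshold and a median of -0.08, with Klf6 at -0.45 ± 0.21 and Egr2 at -0.60 ± 0.30 (limma, adjusted p = 0.503 and 0.525). Other matricellular proteins had none of 13 past it and a median of -0.02, with tenascin C (Tnc) at 0.78 ± 0.27, above every control in 6 of 6 smoke lungs, and Fbln5, an elastic fibre protein, at 0.37 ± 0.15 (limma, adjusted p = 0.371 and 0.443). Tnc was the 1 member of 13 that was higher without overlap, against 1.97% of all tested genes.

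**Figure D5:**
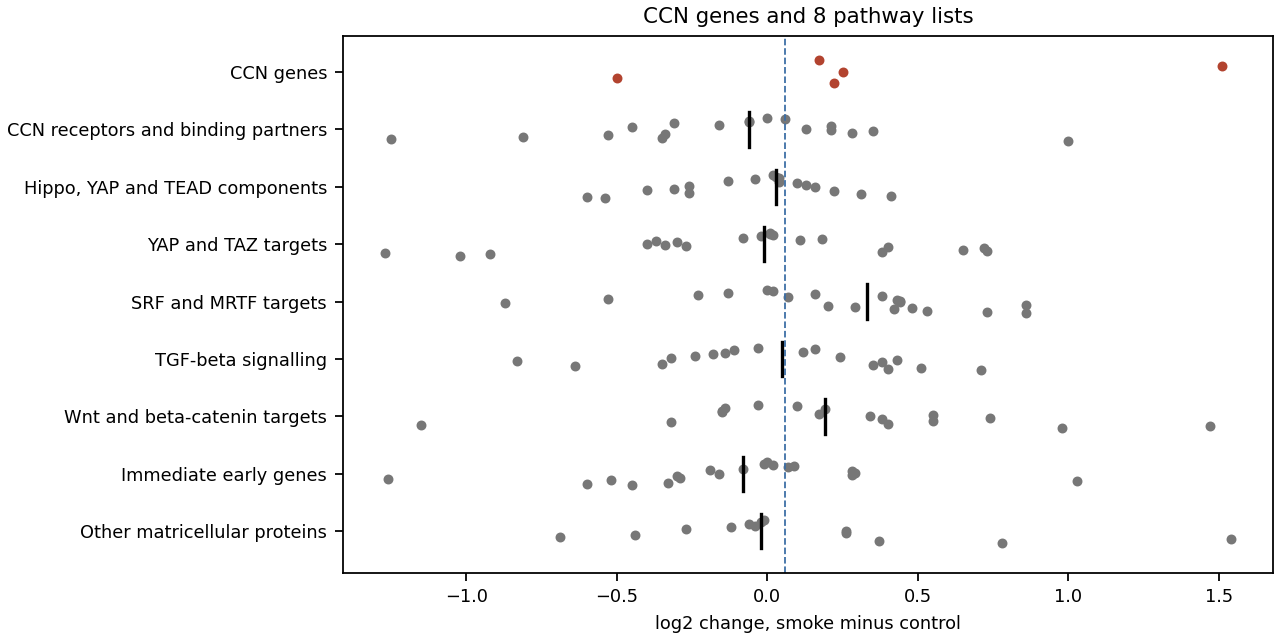
Log2 difference, smoke minus control (horizontal axis), of the 5 CCN genes (red, brightest probe set of each) and of the tested members of 8 pathway lists (grey); black bars are list medians and the dashed line is the median of all tested genes, 0.06. Ccn4 at 1.51 and Ccn2 at -0.50 lie at opposite ends of the CCN row, and the SRF and MRTF list has the highest list median shown, 0.33. On arrays numbered 1 to 4 alone that median was 0.13, below the 0.23 of the Wnt list.

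Markers of the cell types of whole lung were summed as deposited intensities per array. In whole lung, fewer cells of a type and less RNA per cell cannot be told apart. Lung epithelial markers, 11 of 12 on the array with 1 symbol and all 11 past the filter, summed to 90102.2 to 156096.3 in smoke lungs and 99033.3 to 118131.2 in control lungs. Leukocyte markers, 8 of 9 on the array, summed to 5815.8 to 10680.7 in smoke lungs and 13426.5 to 20748.2 in control lungs, with no overlap. S100a9, a calcium-binding protein of neutrophils, made up much of that sum, at 2029.1 to 5902.4 in smoke lungs and 8129.2 to 15005.8 in control lungs, and it fell by 2.00 on the log2 scale (SE 0.28, limma, adjusted p = 0.00423). The other 7 leukocyte markers summed to 3786.7 to 5270.9 in smoke lungs and 4779.1 to 6653.9 in control lungs, which overlap, a split made after the values were seen. Of the 6 of these that were tested none passed. Cd79a, a B cell gene, was at 0.98 ± 0.33 (limma, adjusted p = 0.356), and all the others were below 0. Those ran from Marco at -1.28 ± 0.70 (limma, adjusted p = 0.557) to Nkg7 at -0.07 ± 0.43 (limma, adjusted p = 0.967). Ptprc, the pan-leukocyte CD45, was at -0.30 ± 0.16 (limma, adjusted p = 0.564). Fibroblast markers (10 of 10) summed to 63624.8 to 102676.2 in smoke lungs and 61440.6 to 83169.3 in control lungs, and smooth muscle markers (8 of 8) to 1449.3 to 2526.3 in smoke lungs and 1393.5 to 1734.4 in control lungs. The highest smooth muscle sums, 2526.3 and 2478.7, were those of the smoke arrays high in Xist, and other smoke arrays reached at most 1850.1. All sums other than that of the leukocyte markers, those of endothelial, mesothelial, cardiac, cartilage, fat and red cell markers included, overlapped between the groups. The part of the cell makeup in the Ccn4 and Ccn2 differences was not tested.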

How the data were processed

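The authors deposited linear intensities, a single value for each probe set of each array; the summarising program is not given in the sources used here. Trimmed means of 499.5 to 499.9 on every array are what scaling to a common target gives. After replacing the 1 zero by the smallest value above it, log2 intensities were quantile normalized, with a floor at the 10th percentile of the table (15.8 as intensity). The array has 45101 probe sets; its 64 controls were dropped, and tests covered the 60% of the others with the highest means. Smoke and control were compared with limma 3.58.1 (eBayes with trend, R 4.3.3), two-sided, with Benjamini-Hochberg adjustment over 27022 probe sets, and the fit was tested on simulated data. A gene is represented by its brightest tested probe set. Probe sets were named from the platform annotation. Members, lists and settings were chosen with earlier results of these data known. Genes named were all members, the 2 of each list with the smallest p where none passed, and the 3 nearest by correlation. No pair of arrays held identical values (r of 0.838 to 0.961). Same-numbered arrays did not deviate together (r of -0.068 to 0.171 over tested probe sets), so no block entered the reported fit. The rule in the series' text counts pairwise comparisons in a number that does not match 6 and 4 arrays. As an alternative it was applied to all 24 pairs, asking for 1.5-fold in 2 of each 3, a mean fold of 1.5 and an unadjusted p under 0.05. Figures used matplotlib 3.10.9.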

Additional observations from a re-analysis of the deposited data

How the results depend on the processing

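Among 23 settings, Ccn2, both Ccn4 probe sets and Ccn5 kept their sign in all. CCN probe sets past the threshold numbered 0 as reported and over single omissions, 1 with array weights, without smoke arrays 1 and 2 and by the rule of the series' text, and 2 with the actin covariate, without smoke arrays 5 and 6 and with the replicate block. All probe sets past it numbered 149 as reported, 87 to 168 over single omissions, 252 without smoke arrays 1 and 2, 342 with array weights, 639 with the actin covariate, 1203 without smoke arrays 5 and 6, 1298 with the block and 1162 by the text's rule. Pathway list genes past it numbered 0 as reported, 1 as deposited, 2 with array weights, 6 with the covariate, 13 without smoke arrays 5 and 6 and 15 with the block. The replicate block, on arrays numbered 1 to 4, gave Ccn4 1.74 (limma, adjusted p = 0.0279) and Ccn2 -0.68 (limma, adjusted p = 0.011), the same differences as those arrays without it. The labels do not say that the numbers pair the mice. Ccn4 also passed with array weights (1.37), the actin covariate (1.47) and without smoke arrays 1 and 2 (1.54), and Ccn2 with the covariate (-0.47). By exact permutation with no adjustment, Ccn4 at 1.51 had p = 0.0143 and Ccn2 at -0.50 had p = 0.00952. Single omissions gave 1.35 to 1.70 for Ccn4, 0.61 to 1.15 for 1448593_at, -0.59 to -0.43 for Ccn2, 0.04 to 0.45 and 0.05 to 0.37 for the Ccn3 probe sets and 0.07 to 0.27 for Ccn5. For Ccn1 they gave -0.04 (without smoke replicate 1) to 0.36 for 1416039_x_at, -0.83 to 0.02 for 1457823_at, -0.09 to 0.15 for 1438133_a_at and -0.83 to 0.16 for 1442340_x_at, so each sign turned. Ccn1 1416039_x_at also turned with array weights (-0.15), without smoke arrays 1 and 2 (-0.24) and at probe sets 1457823_at (-0.43) and 1442340_x_at (-0.35), which themselves turned without those arrays (0.04 and 0.14); 1438133_a_at turned without smoke arrays 5 and 6 and with the block (-0.18 each). The Ccn3 probe sets turned with array weights (-0.18 and -0.02) and without smoke arrays 1 and 2 (-0.14 and -0.04). As deposited, the r of Ccn2 turned with Ccn1 (0.34), Ccn3 (0.04), Ccn4 (0.22) and Ccn5 (0.12). Without smoke arrays 1 and 2, the r of Ccn5 turned with Ccn1 (-0.24), Ccn2 (0.87) and Ccn3 (-0.28). The causes were not tested.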
